A study of Homo sapiens with 6 samples.

Results

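Human NOMO-1 cells, from an acute myeloid leukaemia, were profiled by RNA sequencing after knockout of the MSLN gene (MSLN-KO, 3 libraries) and in their parental form (WT, 3 libraries), and the genes described here are those of the mitochondrial ribosome. Members were all listed genes whose symbol starts with MRPL or MRPS and a number, plus DAP3, which gave 78 of 11363 listed genes after an antisense RNA (MRPL20-AS1) and a pseudogene (MRPS31P5) were left out. By their place in the human mitoribosome structure, 51 members belong to the large subunit and 26 to the small subunit. MRPS30 and MRPS18A carry small-subunit symbols but sit in the large subunit. MRPS36 sits in neither, since its product is now known as a part of the alpha-ketoglutarate dehydrogenase complex. MRPS5 was not analysed here. Both groups are the same cell line, and the labels name no treatment, age or time. They do not say whether the knockout cells were 1 clone or a pool, nor that the libraries came from separate cultures, so the p-values reflect the spread among these 6 samples and nothing wider, and that spread may be technical.

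The mitochondrial ribosome translates the few messages of the mitochondrial genome, all of them encoding subunits of the respiratory chain and of ATP synthase. Its RNAs are made inside the organelle from mitochondrial DNA, whereas its proteins are encoded in the nucleus, made in the cytosol and imported. It carries homologues of bacterial ribosomal proteins together with many proteins that bacteria lack. Many myeloid leukaemia cells are known for their reliance on oxidative phosphorylation and on mitochondrial translation.

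The libraries held between 23665824 and 30804446 reads in the listed genes, a figure that rests on the step between deposited values and not on deposited read counts. The median member had between 793.5 and 1023.5 reads per library, and the least covered member between 259 and 350. MSLN itself had 45.7, 46.9 and 45.3 CPM (read counts scaled to library size) in MSLN-KO cells, against 153, 123 and 106 CPM in WT cells. Of 12 monocytic markers 12 were listed, and they moved both ways in MSLN-KO cells. MPO (log2 change -4.00), LYZ (-1.26), CD14 (-1.24), CSF1R (-0.39), CD68 (-0.37) and ITGAM (-0.23) were called lower, FCGR1A (0.78), CEBPA (0.40) and CD33 (0.39) were called higher, and SPI1, CSF3R and PTPRC were not called. Of the markers of other cells, 0 of 3 for B cells, 0 of 3 for erythroid cells and 1 of 4 each for T and NK cells (NKG7), epithelial and mesothelial cells (KRT18) and stromal and endothelial cells (PECAM1) were listed. The part of the changed monocytic markers in the results below was not tested.

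Mitochondrial ribosomal protein genes leaned towards lower levels in MSLN-KO cells, by small amounts. Of the 78 members, 28 (35.9%) fell and 7 (8.97%) rose at an adjusted p under 0.05 (limma on log2(CPM + 1), two-sided, Benjamini-Hochberg over all genes), while 43 were not called. Among all 11363 listed genes 45.7% were called, 23.3% lower and 22.4% higher, so the share of members called in either direction, 44.9%, was near the background and the split between directions was not. The median log2 change of the members was -0.09, and that of all listed genes was 0.01. Member changes ran between -0.67 and 0.45, and 2 members lay beyond 0.5 in either direction. All 3 MSLN-KO libraries lay below all 3 WT libraries for 34 members and above them for 12, against 28.1% and 26.6% of all listed genes (54.7% in either direction). The count of lower members was 16 of 78 without WT replicate 3, and 6 were higher, against 2139 and 1981 of all 11363 genes. The lower share of the members then lay close to that of all genes, and the higher share stayed below it. The count of higher members was 4 without MSLN-KO replicate 1, where 1947 of all listed genes were higher and 2145 lower. With each library rescaled to the same total, 22 members were lower and 10 higher, against 2278 and 2942 of all listed genes. In RNA from bulk cells, fewer cells of a type and less RNA per cell cannot be told apart.

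**Figure D1:**
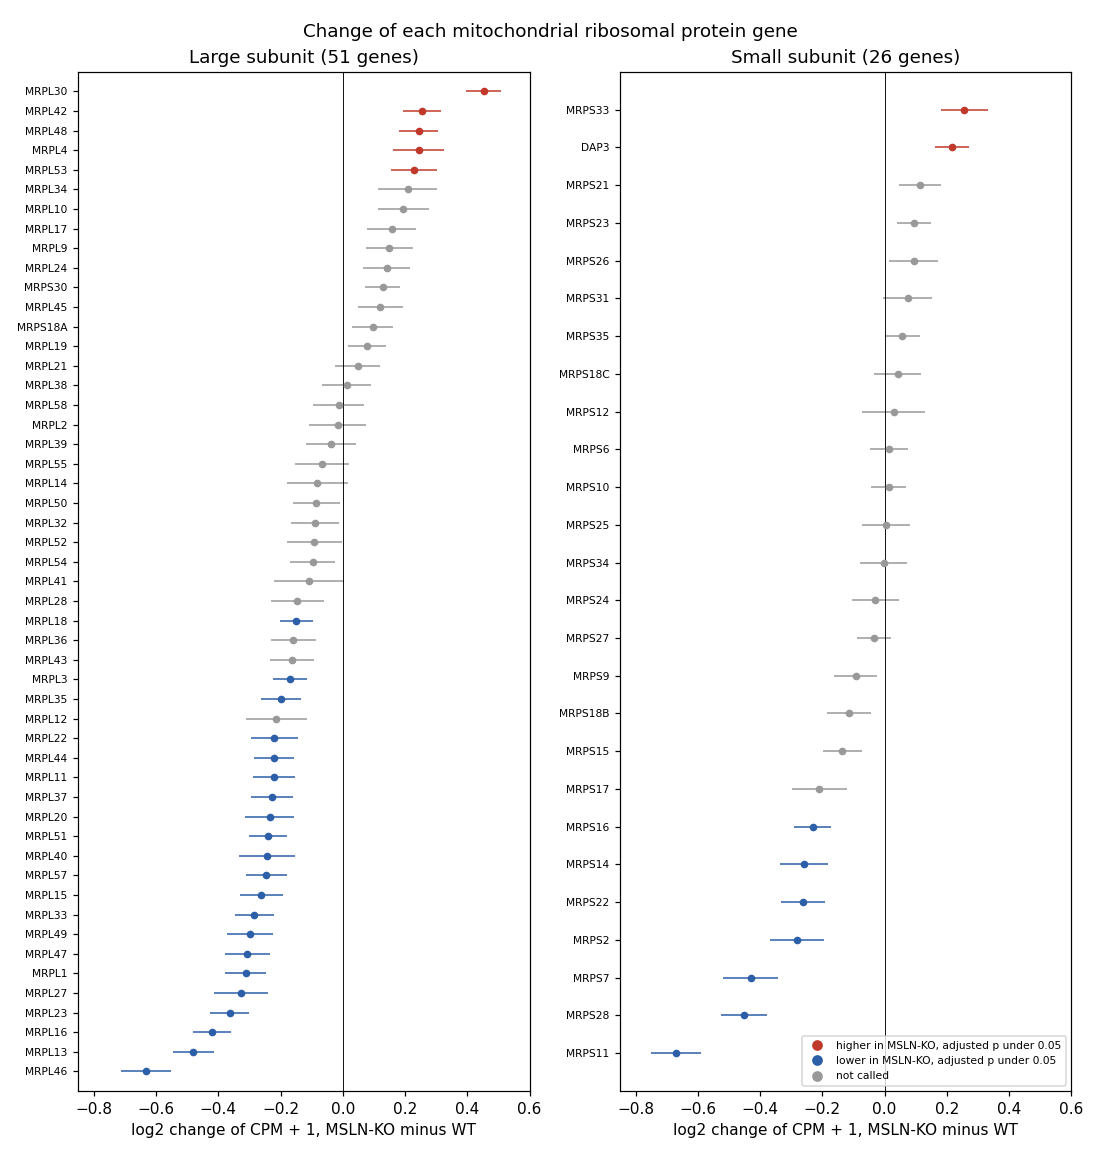
The log2 change of CPM + 1 (MSLN-KO minus WT, bars show the standard error) for the 51 large-subunit and 26 small-subunit genes, coloured by the call. MRPS11 and MRPL46 have the lowest values, -0.67 and -0.63, and MRPL30 has the highest, 0.45.

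Of the members that fell, 21 belonged to the large and 7 to the small subunit. Of the 51 large-subunit genes 21 fell and 5 rose, with a median log2 change of -0.11, whereas of the 26 small-subunit genes 7 fell and 2 rose, with a median of -0.02. The small-subunit share that fell, 26.9%, was near the 23.3% of all genes, and the large-subunit share was 41.2%. The shares that rose were 7.69% in the small and 9.80% in the large subunit, both below the 22.4% of all genes. The difference between the subunits was not tested. Without WT replicate 3 the lower counts were 12 in the large and 4 in the small subunit, and without MSLN-KO replicate 1 the higher counts were 3 and 1. With each library rescaled to the same total, 15 large-subunit members were lower and 8 higher, against 7 lower and 2 higher in the small subunit, so the lower counts of the subunits then lay closer to each other relative to their sizes. With subunits assigned by symbol prefix the counts of calls were equal to these.

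**Figure D2:**
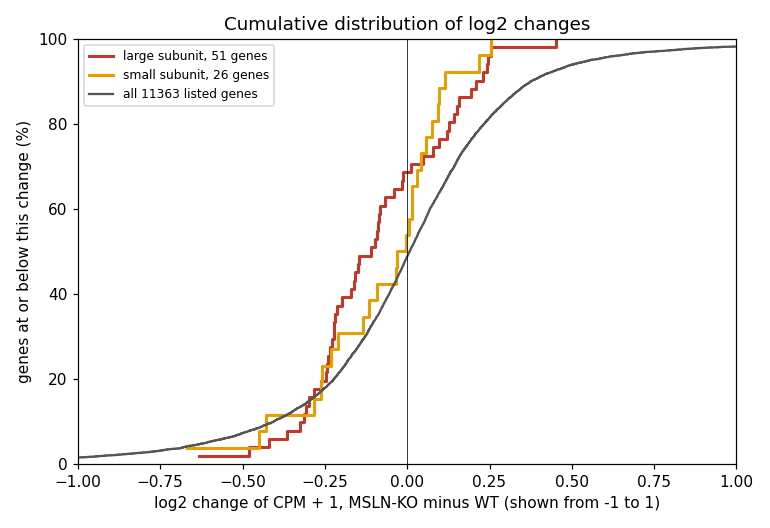
Cumulative share of genes (vertical axis, percent) at or below each log2 change of CPM + 1 (horizontal axis, MSLN-KO minus WT) for the 51 large-subunit genes, the 26 small-subunit genes and all 11363 listed genes. The large-subunit curve lies left of the curve of all genes around the median (-0.11 against 0.01), and both subunit curves are narrower than it.

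Summed over genes, the large subunit held 1898, 1906 and 1939 CPM in the MSLN-KO libraries, against 2077, 1984 and 2087 CPM in the WT libraries. All 3 MSLN-KO sums lay below all 3 WT sums, and the means were 1914 ± 22.0 CPM and 2049 ± 57.0 CPM (SD, n = 3 each), a difference of -6.57%. The small subunit held 1075, 1077 and 1095 CPM in MSLN-KO cells, against 1130, 1086 and 1172 CPM in WT cells. Here the groups overlapped, since MSLN-KO replicate 3 lay above WT replicate 2, and the difference of the means, 1083 ± 11.02 and 1129 ± 42.9 CPM (SD, n = 3 each), was -4.13%. The ratio of the large to the small sum was 1.76, 1.77 and 1.77 in MSLN-KO cells, against 1.84, 1.83 and 1.78 in WT cells. Every MSLN-KO ratio was below every WT ratio, with WT replicate 3 closest to them. As a share of all CPM in the library, the members made up 0.305%, 0.304% and 0.315% in MSLN-KO cells, against 0.319%, 0.310% and 0.329% in WT cells, and on this scale the groups overlapped. These sums are descriptions and carry no test.

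**Figure D3:**
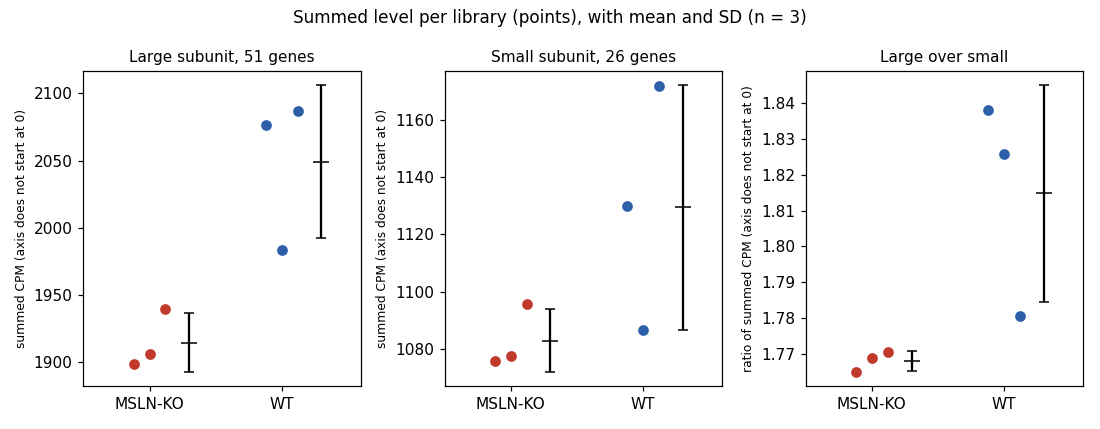
Summed CPM of the 51 large-subunit genes, of the 26 small-subunit genes, and their ratio, in each library (points) with mean and SD (n = 3), on axes that do not start at 0. The large-subunit sums are all below WT in MSLN-KO cells, and the small-subunit sums overlap at WT replicate 2, 1086 CPM.

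Members were also divided by their structural names, into those named after a bacterial homologue and those with a mitochondria-specific name. The division follows the name alone. MRPS18A and MRPS18B count as mitochondria-specific (mL66 and mS40), whereas MRPS18C, which shares their symbol stem, counts as a homologue (bS18m). Of 45 members with a bacterial homologue 20 fell and 2 rose (median log2 change -0.15), and of 32 mitochondria-specific members 8 fell and 5 rose (median -0.02). The lower shares were 44.4% of the homologues and 25% of the mitochondria-specific members, against 23.3% of all listed genes, and the higher shares 4.44% and 15.6%, against 22.4%. In the small subunit 6 of 15 members with a bacterial homologue fell, the highest log2 change among them being 0.11 (MRPS21, not called), whereas 1 of 11 mitochondria-specific members fell and 2 rose. In the large subunit the medians were -0.15 for the 30 homologues and -0.09 for the 21 specific proteins. Calls were also more frequent among well-covered genes: above the median member CPM 20 of 39 fell and 3 rose, and at or below it 8 of 39 fell and 4 rose. Among the homologues that fell were MRPS11 on chromosome 15 and MRPS28, MRPL13 and MRPL15 on chromosome 8. MRPL46, a specific member that fell, is on chromosome 15 too. Other genes of both chromosomes leaned lower as well, as given below. The part of these chromosomes in the contrast was not tested, nor was the difference between the classes.

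The largest falls were those of MRPS11 and MRPL46, neighbours on chromosome 15. MRPS11 encodes uS11m, a protein of the small-subunit platform with a bacterial homologue, and lies at chr15:88467453-88480773 on the plus strand (GRCh38, GENCODE 29). It had 10.4, 9.76 and 10.4 CPM in MSLN-KO cells, against 16.5, 16.4 and 17.6 CPM in WT cells. The groups were far apart relative to their spread, and the level fell by 39.4% (log2 change -0.67, SE 0.08, limma adjusted p = 2.2e-05). MRPL46 encodes mL46, a mitochondria-specific protein of the large subunit's central protuberance, and lies at chr15:88459476-88467419 on the minus strand. It had 10.7, 11.5 and 11.5 CPM in MSLN-KO cells, against 18.6, 17.3 and 17.9 CPM in WT cells. These groups did not overlap either, and the level fell by 37.4% (log2 change -0.63, SE 0.08, limma adjusted p = 3.2e-05). Per kb of exon the same genes also had the lowest mean levels of all members, 1.75 CPM per kb in MSLN-KO and 2.79 in WT for MRPL46, and 1.81 and 2.99 for MRPS11. This rank depends on their long exon unions, 6432 bp for MRPL46 and 5625 bp for MRPS11, against a member median of 2539 bp. By mean CPM over all libraries MRPS17 was lowest (13.4), with 13.5 for MRPS11 and 14.6 for MRPL46.

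MRPS11 and MRPL46 are transcribed away from each other, and they were the only member pair starting within 1000 bp of each other on opposite strands. Their starts lie 34 bp apart in GENCODE 29 and 320 bp apart in RefSeq (GRCh38.p14), where the stretch between them serves as the upstream sequence of both. The 250 bases before the RefSeq start of MRPL46 (chr15:88467389-88467638, minus strand, GRCh38.p14) are shown because both genes fell together. The stretch holds no match to either motif searched below, so no base is in capitals.
MRPL46: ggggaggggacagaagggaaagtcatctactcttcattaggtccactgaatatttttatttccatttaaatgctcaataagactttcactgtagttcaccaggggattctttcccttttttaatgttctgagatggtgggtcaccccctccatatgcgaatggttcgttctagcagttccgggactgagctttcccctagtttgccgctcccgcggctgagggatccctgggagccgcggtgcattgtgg

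The genes around this pair were lower as well. Of 18 other listed genes within 2 Mb 16 were lower and 2 were not called, with a median log2 change of -0.62. Within 5 Mb 35 of 41 were lower, with a median of -0.56. Over all of chromosome 15 the genes that are not members had a median of -0.56, and 82.9% of them were lower. The values of MRPS11 and MRPL46 thus lay close to the median of their neighbours. Without this chromosome 7 of 76 members (9.21%) were higher and 26 (34.2%) lower, counts taken after the data were seen. The like shares of all genes outside it were not taken, and the 23.3% lower among all listed genes includes chromosome 15.

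**Figure D4:**
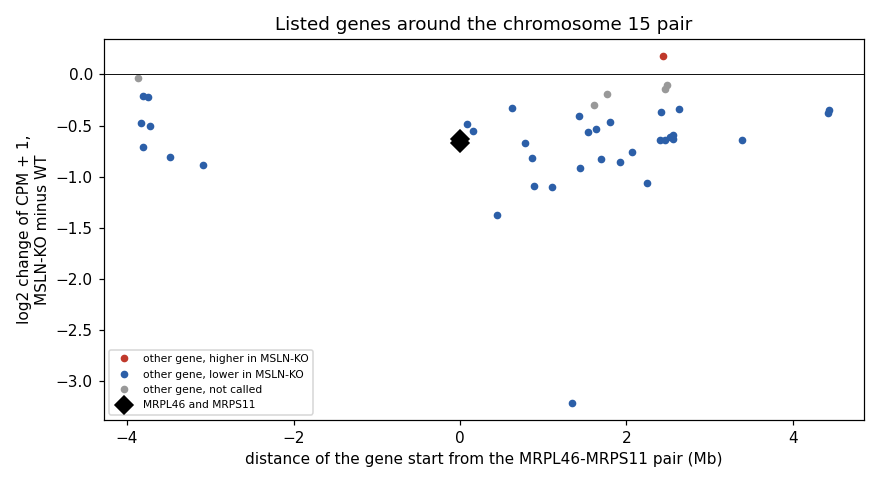
Log2 change of CPM + 1 (vertical axis, MSLN-KO minus WT) of the listed genes within 5 Mb of the MRPL46 and MRPS11 starts, against the distance of their start from the pair (horizontal axis, Mb). The pair (diamonds, -0.63 and -0.67) lies among its neighbours, whose median is -0.56.

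All 3 members on chromosome 8 fell. MRPL13 encodes uL13m, whose bacterial homologue joins the large subunit early in assembly, and lies at chr8:120380761-120445402 on the minus strand. It had 32.0, 32.8 and 35.0 CPM in MSLN-KO cells, against 45.3, 45.9 and 49.4 CPM in WT cells. The groups did not overlap (log2 change -0.48, SE 0.07, limma adjusted p = 6.6e-05). MRPS28, which encodes the small-subunit protein bS1m, had 14.99, 14.9 and 15.3 CPM in MSLN-KO cells, against 20.4, 20.6 and 21.8 CPM in WT cells. Its groups were separate too (log2 change -0.45, SE 0.07, limma adjusted p = 2.8e-04). MRPL15, a large-subunit homologue of bacterial L15, had a log2 change of -0.26. Other genes of chromosome 8 had a median of -0.10, with 38.1% lower and 16.2% higher. Near MRPL13 and MRPS28 the medians within 2 Mb were -0.12 over 6 genes and -0.02 over 7 genes. Without chromosomes 8 and 15, 23 of 73 members (31.5%) were lower and 7 (9.59%) higher. Shares of all genes outside these chromosomes were not taken either.

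Other large-subunit members with large falls lay outside chromosomes 8 and 15. MRPL16 encodes uL16m, whose bacterial homologue lies by the peptidyl transferase centre and helps to place the incoming tRNA. It had 47.0, 49.3 and 49.7 CPM in MSLN-KO cells, against 67.8, 61.6 and 67.1 CPM in WT cells. All MSLN-KO values were below all WT values, and the level fell by 25.7% (log2 change -0.42, SE 0.06, limma adjusted p = 1.1e-04). The genes within 2 Mb of MRPL16 had a median of 0.04. MRPL23 encodes a homologue of bacterial L23, which lies where the nascent chain leaves the tunnel, and had 31.6, 32.2 and 32.1 CPM in MSLN-KO cells, against 41.8, 39.6 and 42.9 CPM in WT cells. Its groups were separate, with a log2 change of -0.36 (SE 0.06, limma adjusted p = 4.3e-04). MRPL27 encodes a homologue of bacterial L27, which reaches towards the peptidyl transferase centre, and had 16.8, 18.7 and 20.8 CPM in MSLN-KO cells, against 23.1, 22.8 and 25.2 CPM in WT cells. The MSLN-KO values were spread more widely but stayed below WT (log2 change -0.33, SE 0.09, limma adjusted p = 0.0082), and the call was lost without MSLN-KO replicate 1 (adjusted p = 0.054). MRPL1, which belongs to the stalk where used tRNAs leave, had 29.4, 29.2 and 31.9 CPM in MSLN-KO cells, against 37.2, 36.6 and 39.2 CPM in WT cells. The groups did not overlap (log2 change -0.31, SE 0.07, limma adjusted p = 0.0021).

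The member with the highest level per kb of exon, MRPL33, fell as well. It encodes bL33m, a small protein with a bacterial homologue. It had 117, 112 and 129 CPM in MSLN-KO cells, against 144, 151.3 and 140 CPM in WT cells. The groups did not overlap (log2 change -0.28, SE 0.06, limma adjusted p = 0.0025), and per kb the means were 77.5 CPM in MSLN-KO and 94.4 CPM in WT cells. Of the exon bases of MRPL33, 21.1% are shared with exons of BABAM2 on the same strand. MRPL18, next in level per kb and a homologue of the bacterial 5S rRNA-binding protein L18, had 82.8, 84.3 and 87.6 CPM in MSLN-KO cells, against 95.0, 93.6 and 94.0 CPM in WT cells. The difference was small (log2 change -0.15, limma adjusted p = 0.034) and lost its call without WT replicate 1, WT replicate 3, MSLN-KO replicate 1 or MSLN-KO replicate 2, with adjusted p between 0.083 and 0.145. The call was also lost without the intensity trend (adjusted p = 0.064) and with the libraries rescaled to the same total (0.107). Over all members the level per kb ran between 2.27 and 85.9 CPM, with a median of 12.4.

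Of the small-subunit members, MRPS7 had the largest fall outside chromosomes 8 and 15. It encodes uS7m, whose bacterial homologue starts the assembly of the subunit's head. It had 20.9, 21.2 and 21.6 CPM in MSLN-KO cells, against 31.7, 24.8 and 30.8 CPM in WT cells. WT replicate 2 was closer to the MSLN-KO values than the other WT libraries, yet the groups did not overlap (log2 change -0.43, SE 0.09, limma adjusted p = 0.0017). MRPS2 encodes a homologue of bacterial S2 and had 38.1, 42.0 and 32.8 CPM in MSLN-KO cells, against 46.6, 42.7 and 48.2 CPM in WT cells. The nearest values of the groups almost met, and the log2 change of -0.28 (SE 0.09, limma adjusted p = 0.017) lost its call without WT replicate 1, WT replicate 3 or MSLN-KO replicate 3 (adjusted p between 0.051 and 0.076). MRPS22, a mitochondria-specific protein, had 51.6, 50.2 and 59.7 CPM in MSLN-KO cells, against 63.9, 62.1 and 67.8 CPM in WT cells. MRPS14, a homologue of bacterial S14 in the head, had 24.9, 26.2 and 24.6 CPM in MSLN-KO cells, against 30.5, 27.7 and 33.2 CPM in WT cells. Neither pair of groups overlapped, and both had a log2 change of -0.26 (SE 0.07 for MRPS22 and 0.08 for MRPS14, limma adjusted p = 0.0096 and 0.015). Without WT replicate 3 the adjusted p was 0.051 for MRPS22 and 0.081 for MRPS14, and without MSLN-KO replicate 1 it was 0.056 for MRPS14.

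**Figure D5:**
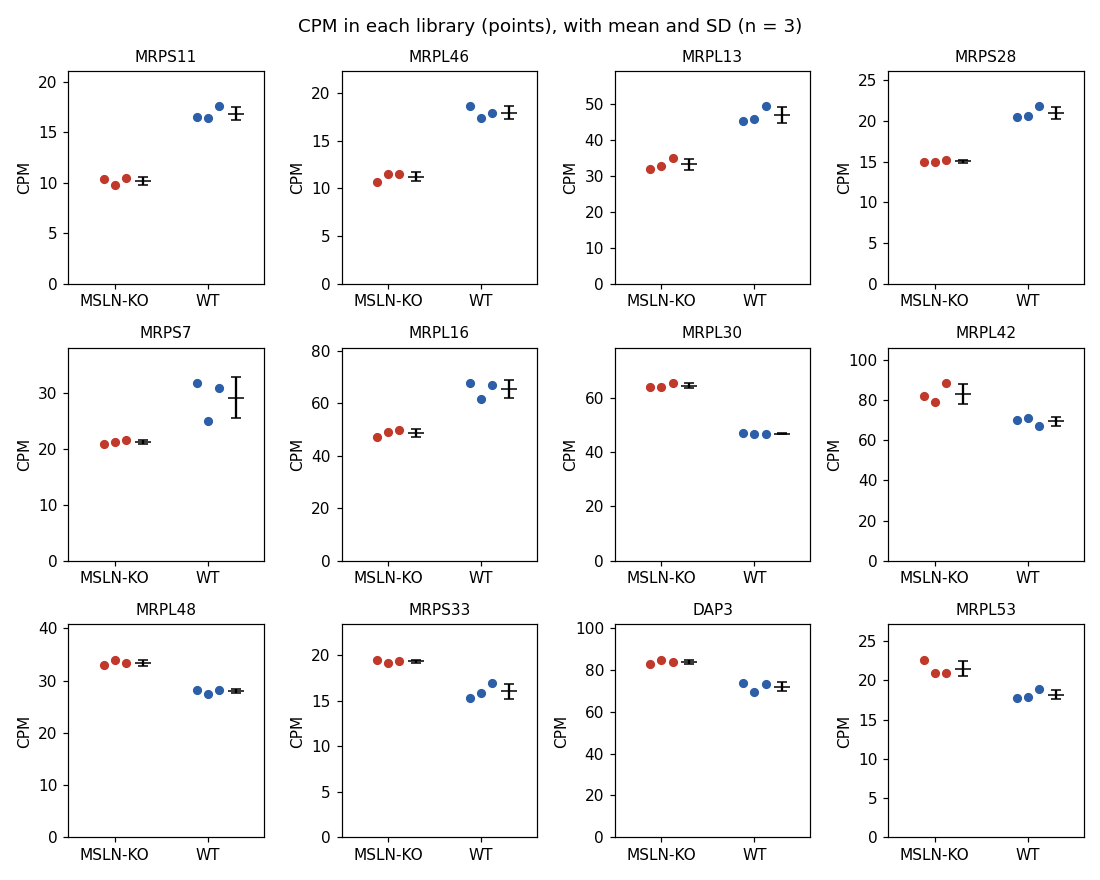
CPM in each library (points) with mean and SD (n = 3) for 12 members, MSLN-KO left of WT, on axes from 0. The groups are separate in every panel, with MSLN-KO below WT for MRPS11, MRPL46, MRPL13, MRPS28, MRPS7 and MRPL16 and above it for MRPL30, MRPL42, MRPL48, MRPS33, DAP3 and MRPL53.

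Against this direction, 7 members rose, led by MRPL30. MRPL30 encodes uL30m, a large-subunit homologue of bacterial L30, and lies at chr2:99181079-99197626 on the plus strand. It had 63.9, 63.8 and 65.3 CPM in MSLN-KO cells, against 47.1, 46.6 and 46.6 CPM in WT cells. Both groups were tight, and MSLN-KO lay 37.6% above WT (log2 change 0.45, SE 0.06, limma adjusted p = 2.5e-05). DAP3 encodes mS29, a GTP-binding protein of the small subunit first named for a role in cell death, and had 82.9, 84.6 and 83.8 CPM in MSLN-KO cells, against 73.4, 69.2 and 73.1 CPM in WT cells. Its groups did not overlap (log2 change 0.22, SE 0.05, limma adjusted p = 0.0055). MRPL42, a mitochondria-specific protein, had 82.0, 79.0 and 88.6 CPM in MSLN-KO cells, against 70.1, 71.4 and 67.0 CPM in WT cells. Its log2 change was 0.26 (SE 0.06, limma adjusted p = 0.0041), with all MSLN-KO libraries above all WT libraries.

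The remaining rises were of like size. MRPL48, a mitochondria-specific protein of the central protuberance, had 32.9, 33.9 and 33.3 CPM in MSLN-KO cells, against 28.3, 27.5 and 28.3 CPM in WT cells, without overlap (log2 change 0.24, limma adjusted p = 0.0070). MRPS33, a mitochondria-specific protein of the small subunit, had 19.5, 19.1 and 19.4 CPM in MSLN-KO cells, against 15.3, 15.9 and 16.9 CPM in WT cells (log2 change 0.26, limma adjusted p = 0.014). Its groups were separate, though the call was lost without MSLN-KO replicate 1 (adjusted p = 0.057). MRPL4, whose bacterial homologue lines the exit tunnel, had 32.0, 31.1 and 26.7 CPM in MSLN-KO cells, against 26.2, 23.6 and 25.4 CPM in WT cells. The nearest values of the groups almost touched (log2 change 0.24, limma adjusted p = 0.026), and the call was lost without WT replicate 2, WT replicate 3, MSLN-KO replicate 1 or MSLN-KO replicate 2 (adjusted p between 0.059 and 0.13). MRPL4 lies on chromosome 19, where genes that are not members had a median of 0.15, with 36.8% higher and 9.52% lower. MRPL53 had 22.6, 21.0 and 20.9 CPM in MSLN-KO cells, against 17.8, 17.9 and 18.9 CPM in WT cells (log2 change 0.23, limma adjusted p = 0.022). The groups did not overlap, but the call was lost without WT replicate 1 or MSLN-KO replicate 1 (adjusted p = 0.060 and 0.113). Of the exon bases of MRPL53, 45.2% are shared with exons of CCDC142 on the same strand. Apart from MRPL4, each of the 7 has at least 1 annotated pseudogene, as do 34 of all 78 members, and how reads shared with such copies were counted is not given in the sources used here. Among the 44 members without one, 16 (36.4%) were lower and 1 (2.27%) higher. Of all members 35.9% were lower and 8.97% higher, and of all listed genes 23.3% and 22.4%. The part of such copies in the rises was not tested.

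The threshold fell between genes of similar change. MRPL40, a mitochondria-specific protein of the central protuberance, was just inside it, with 14.7, 14.5 and 12.8 CPM in MSLN-KO cells, against 17.5, 15.01 and 17.7 CPM in WT cells (log2 change -0.24, limma adjusted p = 0.043). Its groups came close at WT replicate 2, and the call was lost without any of WT replicates 1 and 3 and MSLN-KO replicates 1, 2 and 3 (adjusted p between 0.063 and 0.15), and with the libraries rescaled to the same total (0.067). MRPS17, a homologue of bacterial S17, was just outside it, with 11.2, 13.0 and 12.9 CPM in MSLN-KO cells, against 14.3, 13.8 and 15.3 CPM in WT cells (log2 change -0.21, limma adjusted p = 0.068), and without the intensity trend it was called lower (0.046). The 43 members not called had log2 changes between -0.21 and 0.21. Among the 14 settings run, which were the fit above and 13 alternatives, 15 members were called lower in each (11 large, 4 small) and 4 higher in each (3 large, 1 small). The like counts over all listed genes were not taken, so these have no background to be set against.

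Promoters of the members were searched for motifs of factors known to act on nuclear genes for mitochondrial proteins. RefSeq (GRCh38.p14) gave promoters for 69 of the 78 members, each 250 bases before to 50 bases after the start. The motifs were CCGGAAG, the core bound by GABP and other ETS factors, and GCGCANGCG, most of the core bound by NRF1, where N is any base. Both strands were searched, and a match counted whether or not it overlapped another. CCGGAAG was found in 42.0% of member promoters, in 21.5% of the 8985 promoters of listed genes and in 10.7% of all 27305 promoters of the same length. Among members it was present in 10 of 23 that fell, 4 of 7 that rose and 15 of 39 that were not called. GCGCANGCG was found in 18.8% of member promoters, 15.8% of those of listed genes and 8.05% of all promoters.

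The 250 bases before the start are shown for 3 members that do not all share a direction or the same motifs, with matches in capitals. MRPL30, which rose, has CCGGAAG on the opposite strand and a GCGCANGCG match (chr2:99180934-99181183, plus strand). MRPL27, which fell, has CCGGAAG at 2 places, 52 and 8 bases before the start (chr17:50373185-50373434, minus strand). MRPS33, which rose, has a GCGCANGCG match in the stretch shown (chr7:141014953-141015202, minus strand). It also has CCGGAAG on the opposite strand, which begins at the start itself and so lies after that stretch.
MRPL30: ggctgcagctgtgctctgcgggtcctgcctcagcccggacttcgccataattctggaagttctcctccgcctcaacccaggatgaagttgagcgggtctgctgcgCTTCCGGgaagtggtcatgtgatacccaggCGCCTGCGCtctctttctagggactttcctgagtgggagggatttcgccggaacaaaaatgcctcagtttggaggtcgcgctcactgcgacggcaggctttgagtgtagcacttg
MRPL27: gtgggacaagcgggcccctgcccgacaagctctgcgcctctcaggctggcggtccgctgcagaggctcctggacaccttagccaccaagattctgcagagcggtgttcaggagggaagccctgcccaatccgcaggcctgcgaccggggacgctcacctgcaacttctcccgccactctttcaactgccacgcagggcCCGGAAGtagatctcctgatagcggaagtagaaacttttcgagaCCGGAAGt
MRPS33: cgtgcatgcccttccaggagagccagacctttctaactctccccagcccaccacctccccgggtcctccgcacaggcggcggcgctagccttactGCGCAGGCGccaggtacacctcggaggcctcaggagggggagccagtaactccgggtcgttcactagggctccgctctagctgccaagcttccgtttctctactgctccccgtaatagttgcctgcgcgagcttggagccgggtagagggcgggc

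The 4 mitoribosomal proteins with other symbols had values on the lower side, and 0 of 4 passed the test. AURKAIP1 (mS38) had 46.03, 45.8 and 44.0 CPM in MSLN-KO cells, against 55.7, 45.4 and 53.8 CPM in WT cells, where WT replicate 2 overlapped the MSLN-KO libraries (log2 change -0.18, limma adjusted p = 0.071). PTCD3 (mS39), which guides the message into the small subunit, had a log2 change of -0.10, CHCHD1 (mS37) of -0.11 and GADD45GIP1 (mL64) of -0.17. Before adjustment, AURKAIP1 alone was under 0.05. Without WT replicate 2, AURKAIP1 (adjusted p = 0.0040) and GADD45GIP1 (adjusted p = 0.030) were called lower.

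The RNAs of the ribosome, which mitochondrial DNA encodes, were higher where most called proteins were lower. MT-RNR1, the 12S rRNA of the small subunit, had 98.9, 106 and 101 CPM in MSLN-KO cells, against 68.2, 87.0 and 65.8 CPM in WT cells. MT-RNR2, the 16S rRNA of the large subunit, had 1208, 1164 and 1189 CPM in MSLN-KO cells, against 850, 1028 and 831 CPM in WT cells. Both rose without overlap, with WT replicate 2 the highest WT library for each (log2 change 0.48 and 0.40, limma adjusted p = 7.3e-04 and 9.5e-04). Per the labels' protocols ribosomal RNA was removed before sequencing, so these values are what the removal left, and its part in the difference was not tested. Of the 14 mitochondrially encoded RNAs listed, 6 (42.9%) were higher and 3 (21.4%) lower, against 22.4% and 23.3% of all listed genes. MT-ND3 (log2 change 0.41) and MT-ND2 (0.28), subunits of complex I, rose. MT-CO2, a subunit of cytochrome oxidase, fell (-0.23), as did MT-ND4 and MT-CO1 (both -0.22), the last without a call once the libraries were rescaled (adjusted p = 0.054). The lower count was between 1 and 5 as single libraries were left out, 5 without WT replicate 1 and 1 without WT replicate 2, WT replicate 3 or MSLN-KO replicate 1.

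Of 27 listed genes for assembly and rRNA modification 6 (22.2%) fell and 4 (14.8%) rose, with a median log2 change of -0.07. Against 23.3% lower and 22.4% higher among all listed genes, neither share exceeded the background, and the same background shares apply to the lists that follow. RCC1L, a part of the module that modifies and stabilises 16S rRNA, had 80.1, 81.1 and 76.5 CPM in MSLN-KO cells, against 132, 112 and 126 CPM in WT cells. It fell without overlap (log2 change -0.63, limma adjusted p = 6.5e-06), and NGRN, on chromosome 15, fell with -0.47. NDUFAB1, the mitochondrial acyl carrier protein, fell with -0.29. NOA1, a GTPase of small-subunit assembly, had 39.5, 41.8 and 38.0 CPM in MSLN-KO cells, against 30.0, 31.1 and 28.4 CPM in WT cells. It rose without overlap (log2 change 0.40, limma adjusted p = 3.6e-04). MALSU1 (-0.27), a large-subunit assembly factor, TFB1M (0.27), which methylates 12S rRNA, RPUSD3 (0.27) and RBFA (0.21) were called too, but each lost its call without at least 1 single library. Without WT replicate 3 the counts were 3 lower and 2 higher, and the higher count was 1 without MSLN-KO replicate 2 and 2 without MSLN-KO replicate 3.

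Of 16 listed translation factors 2 (12.5%) fell and 4 (25%) rose, with a median of -0.01. MTFMT, which formylates the initiator tRNA and lies on chromosome 15, had 2.91, 4.03 and 3.42 CPM in MSLN-KO cells, against 7.14, 7.78 and 8.09 CPM in WT cells. It fell without overlap (log2 change -0.97, limma adjusted p = 2.3e-05). OXA1L, the insertase that docks on the ribosome at the inner membrane, had 150, 153 and 144 CPM in MSLN-KO cells, against 114, 111 and 106 CPM in WT cells, and rose (log2 change 0.43, limma adjusted p = 2.9e-05). SLIRP, the partner of LRPPRC in stabilising mitochondrial messages, fell with -0.39, and MTRFR, a ribosome rescue factor, rose with 0.32. GUF1 (0.19) and MTIF2 (0.16) were called higher as well, and without MSLN-KO replicate 1 both calls were lost and 2 factors were higher.

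Of 20 genes for the charging of mitochondrial tRNAs 6 (30%) fell and 2 (10%) rose (median -0.09), among them GATB (-0.34), LARS2 (-0.29) and IARS2 (-0.29) on the lower side. Without WT replicate 3 or MSLN-KO replicate 1, or with each library rescaled to the same total, the lower count was 3. SARS2 (0.37) and PARS2 (0.29) were on the higher side, and without MSLN-KO replicate 1 neither was called. The higher count was 1 without WT replicate 2, WT replicate 3 or MSLN-KO replicate 2.

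Of 17 genes for mitochondrial DNA, its transcription and its RNA processing 5 (29.4%) fell and 2 (11.8%) rose (median -0.05). POLG, the mitochondrial DNA polymerase on chromosome 15, fell with -0.81, and HSD17B10, a subunit of mitochondrial RNase P, with -0.44. POLRMT, the mitochondrial RNA polymerase, had 32.4, 30.0 and 26.8 CPM in MSLN-KO cells, against 22.1, 20.7 and 20.7 CPM in WT cells. It rose without overlap (log2 change 0.47, limma adjusted p = 4.2e-04). POLRMT lies on chromosome 19, where genes that are not members had a median of 0.15. POLG2 was called higher (0.28), and its call was lost without WT replicate 1 or 3 or MSLN-KO replicate 1 or 3. The lower count was 3 without WT replicate 1, WT replicate 3 or MSLN-KO replicate 1, with the libraries rescaled or without the intensity trend, and 2 without MSLN-KO replicate 2, and the higher count was 1 without WT replicate 3, MSLN-KO replicate 1 or MSLN-KO replicate 3.

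Of 9 listed regulators of nuclear genes for mitochondrial proteins 3 (33.3%) rose and 1 (11.1%) fell (median 0.06). MYC, a transcription factor of growth and ribosome production, had 260, 253 and 232 CPM in MSLN-KO cells, against 200, 176 and 160 CPM in WT cells. It rose without overlap (log2 change 0.48, limma adjusted p = 2.3e-04). The GABP subunit genes went apart: GABPB2 rose with 0.40, and GABPB1, on chromosome 15, fell with -0.30. ESRRA was called higher (0.27), but not without WT replicate 2, WT replicate 3, MSLN-KO replicate 1 or MSLN-KO replicate 2.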

How the data were processed

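Total RNA of 6 samples was depleted of ribosomal RNA and sequenced from stranded libraries, per the labels' protocols. The submitters' processing notes name GRCh38 (hg38), STAR, featureCounts and edgeR, which the authors ran. Which annotation and which strand option the counting had is not given in the sources used here, so genes that share exon bases with another listed gene (26 members) are uncertain. The authors deposited CPM after TMM normalization for 11363 genes, each reaching at least 4.9 CPM in 3 or more libraries. Column totals lay between 967718 and 1009572.

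Identifiers were matched to symbols for 11354 genes and to GENCODE 29 coordinates (GRCh38, 1-based) for 11314. Limma 3.58.1 in R 4.3.3 was fitted on log2(CPM + 1) over all genes and both groups, with an intensity trend and no covariates, and tested on simulated data. Log2 changes on this scale understate the change of low genes. No member was lost to a filter. CPM per kb uses the union of a gene's GENCODE 29 exons. No pair of replicates was as alike as sampling noise alone would leave it, with a ratio of chi-square to its degrees of freedom of 2.71 or more.

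The members, the gene lists and the naming rule were chosen with earlier results of these data known. Members given in full were, per subunit, up to 6 called with the largest rise and 6 with the largest fall and no overlap, DAP3, pairs starting within 1000 bp, the 2 highest and 2 lowest per kb, and 1 on each side of the threshold. Of other lists, up to 4 called genes per direction were named. MRPL15, MRPL20, MRPS12 and MRPS36 are given outside this rule, with their values seen. Alternatives changed the pseudocount, filter, scaling, variance trend and replicate block, and left out each library.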

Additional observations from a re-analysis of the deposited data

How the results depend on the processing

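The table gives no read counts, so genes below its minimum were not analysed here, and the planned count test was not run. In each library 100% of the values were whole multiples, within 0.01, of 1 step, on which the printed read numbers rest, but a second check of the values did not accept the recovery, and no count model was fitted. Of 299 results (23 named members under 13 alternatives) 270 kept their direction and call, 28 lost the call, 1 gained it and 0 reversed. For 41 genes of the other lists, whose alternatives were added after seeing the data, 472 of 530 results kept the call, 56 lost it, 2 gained it and 0 reversed.

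As single libraries were left out, members called lower ran between 16 and 31 and members called higher between 4 and 9. Large-subunit counts ran between 12 and 23 lower and between 3 and 7 higher, and small-subunit counts between 4 and 8 lower and between 1 and 2 higher. The median log2 change of the members ran between -0.1279 and -0.0679. The summed CPM of MSLN-KO over WT, alternatives chosen after seeing the data, ran between 0.920 and 0.943 for the large and between 0.941 and 0.977 for the small subunit. Genes called in all ran between 4092 and 5114.

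With a pseudocount of 5 the members' median log2 change was -0.0767. With columns rescaled to the same total the median was -0.0604, 8 large-subunit members were called higher, and the summed ratios were 0.956 (large) and 0.9810 (small). This scaling moved the median of all genes to 0.04. The cause was not tested.

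Replicate numbers in the titles did not pair the samples: deviations of same-numbered libraries correlated at 0.192, -0.169 and -0.0917. With the replicate number as a block, 4946 genes were called, with 7 members higher and 25 lower (large subunit 5 and 18, small subunit 2 and 7), MRPL18 and MRPL40 were not called (adjusted p = 0.0606 and 0.0572), and not every library correlated best with its own number.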

Other observations

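MRPL20 and its antisense RNA lay on opposite sides of WT. MRPL20, a homologue of bacterial L20 in the large subunit, had 34.2, 31.0 and 34.0 CPM in MSLN-KO cells, against 40.1, 35.1 and 42.3 CPM in WT cells. The groups did not overlap, and the level fell (log2 change -0.24, limma adjusted p = 0.027). MRPL20-AS1, transcribed from the other strand, had 17.9, 17.6 and 16.1 CPM in MSLN-KO cells, against 14.1, 11.2 and 12.2 CPM in WT cells. It was higher in every MSLN-KO library (log2 change 0.44, limma adjusted p = 0.0020). The transcripts share 139 exon bases, 5.0% of the exon bases of MRPL20, and without a known strand setting reads there cannot be told apart. MRPS31P5, the other gene left out of the members, had a log2 change of -0.05 (adjusted p = 0.709).

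MRPS12 and SARS2, on opposite strands of chromosome 19, share 349 exon bases. MRPS12, whose bacterial homologue S12 monitors decoding, had 20.8, 20.9 and 19.3 CPM in MSLN-KO cells, against 22.8, 16.8 and 20.6 CPM in WT cells. The groups overlapped (log2 change 0.03, limma adjusted p = 0.839), while SARS2, the mitochondrial seryl-tRNA synthetase, was called higher (0.37, adjusted p = 0.0099, and 0.055 without MSLN-KO replicate 1). Other genes of chromosome 19 had a median log2 change of 0.15. MRPS36, which belongs to neither subunit, had 17.1, 16.2 and 17.8 CPM in MSLN-KO cells, against 16.7, 18.6 and 19.6 CPM in WT cells, and these groups overlapped.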
